A study of Homo sapiens with 8 samples.

Results

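MTA2 and Mi2 peaks that overlapped each other were sorted by which of the 2 proteins stood higher in its own peak list. The peaks came from chromatin immunoprecipitation followed by sequencing (ChIP-seq) in the 697 line, established from human pre-B leukaemia. An overlap of at least 1 bp joined a MTA2 peak to a Mi2 peak, and where several peaks of 1 list met the same partner the highest was kept. This gave 3973 pairs, drawn from 28760 MTA2 peaks and 10303 Mi2 peaks, in a series whose 7 lists hold 159806 peaks. Each peak was given the percentile of its height within its list, and the Mi2 percentile was subtracted from the MTA2 percentile. The height is deposited as tags falling in a peak, scaled to a library of 10 M tags. Of the pairs, 899 leaned to MTA2 (a difference above 25 percentile points), 500 leaned to Mi2 (below -25) and 2574 were balanced.

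A single library was made with each antibody, against MTA2, Mi2, HDAC2, IKAROS, AIOLOS, OCT2 or OCAB, and 1 input library was made without antibody. The labels name no treatment, so every group below is a set of genome regions in the same cells. With 1 library per antibody, no value has a replicate check, pairs are not replicates, and each 95% interval covers counting error only. Library depth recovered from the steps between low heights was 22.8 M tags in the MTA2 library, 18.5 M in the Mi2 library and 10.9 M (HDAC2) to 23.4 M (IKAROS) in the other 5.

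NuRD is a chromatin complex with a histone deacetylase part and a nucleosome remodelling part. MTA2 is a scaffold of the deacetylase part and holds HDAC1 or HDAC2, the enzymes that remove acetyl groups from histones. Mi2 (CHD3 or CHD4) is the ATPase of the remodelling part. IKAROS and AIOLOS are zinc-finger factors of lymphocytes that are known to bind NuRD, OCT2 recognises the octamer motif, and OCAB is a B-cell coactivator that works with octamer factors.

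The classes were chosen by the MTA2 and Mi2 heights themselves, so these heights are given as a description with no test. MTA2-leaning pairs had a median MTA2 height of 28.5 and a median Mi2 height of 13.0 tags per 10 M. Mi2-leaning pairs had medians of 12.7 for MTA2 and 19.5 for Mi2, and balanced pairs had 23.6 and 17.8. In tags, the median MTA2 peak held 65 in MTA2-leaning pairs, 29 in Mi2-leaning pairs and 54 in balanced pairs, and the median Mi2 peak held 24, 36 and 33 in the same order. Median MTA2 percentiles were 82.5 in MTA2-leaning, 33.2 in Mi2-leaning and 74.4 in balanced pairs, while median Mi2 percentiles were 35.8, 78.3 and 71.9. The mean of both percentiles had medians of 59.1, 55.6 and 73.8. The rule bounds this mean, with a highest value of 86.8 in MTA2-leaning and 86.6 in Mi2-leaning pairs, so the pairs highest in both lists are balanced by construction.

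**Figure D1:**
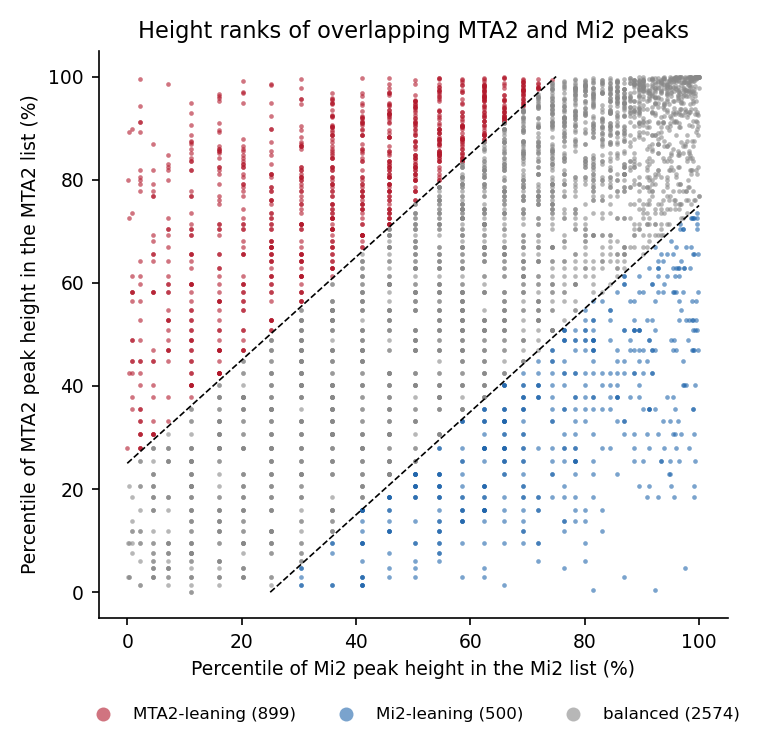
Each point is 1 of the 3973 pairs, placed by the percentile of its Mi2 height in the Mi2 list (x axis, %) and of its MTA2 height in the MTA2 list (y axis, %), with dashed lines at rank differences of 25 and -25 points. The 899 MTA2-leaning pairs fill the upper left, the 500 Mi2-leaning pairs the lower right, and the balanced pairs crowd into the upper right corner; the columns of points are heights that differ by 1 tag.

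Across all pairs the heights of the 2 proteins ranked together with a Spearman rho of 0.498 (n = 3973 pairs, 1 library of each protein). The excess of MTA2-leaning over Mi2-leaning pairs belonged to the ranks in whole lists. With ranks taken among paired peaks alone, 736 pairs leaned to MTA2 and 744 to Mi2. With the 10000 highest peaks of the MTA2 and of the Mi2 list, 253 leaned to MTA2 and 660 to Mi2. Ranked by fold over input in the whole lists, 1545 leaned to MTA2 and 386 to Mi2. Class sizes therefore depended on which peaks were ranked and on the measure ranked, and the contrasts below compare what the classes held.

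Leaning was often within the counting error of the tags. Exact Poisson intervals of the tags in both peaks gave a 95% interval of the rank difference that excluded 0 in 500 of the 899 MTA2-leaning pairs (55.6%) and in 243 of the 500 Mi2-leaning pairs. The interval lay wholly past the limit of 25 points in 37 and 70 of them. The pairs nearest to the upper limit had differences of 25.156 and 25.174 just inside and 24.938 for both just outside. At the lower limit they had -25.097 for both just inside, and -24.913 and -24.863 just outside. Neighbours on either side of a limit thus differed by less than a single tag can move a rank.

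The pairs that leaned farthest to MTA2 combined a high MTA2 peak with a Mi2 peak close to the lowest of its list. The 8 with the largest rank difference had MTA2 heights of 35.5 to 114.7 (81 to 262 tags) and Mi2 heights of 7.56 to 9.73 (14 to 18 tags). At chr1:24671463-24671900 (hg19) the MTA2 height was 114.7 and the Mi2 height 8.64, 97.3 points apart, with an IKAROS height of 9.84 and no peak of the other 4 proteins. At chr4:300458-300855 the MTA2 height was 46.0 against a Mi2 height of 8.64, beside heights of 31.1 for HDAC2, 124.9 for IKAROS, 66.0 for AIOLOS and 30.6 for OCT2. At chr22:35888075-35888421 MTA2 stood at 73.1 and Mi2 at 9.73, with HDAC2 at 26.6 and IKAROS at 12.0. At chr11:398753-399099 MTA2 stood at 35.5 and Mi2 at 8.64, and HDAC2, at 13.7, was the other protein found. Of the 8 pairs, 7 held HDAC2, 7 IKAROS, 5 AIOLOS, 5 OCT2 and 2 OCAB. Over all MTA2-leaning pairs the shares were 72.3%, 91.0%, 87.4%, 47.7% and 20.8% in the same order.

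The pairs that leaned farthest to Mi2 had few MTA2 tags. Their 8 Mi2 heights ran between 20.5 and 52.9 (38 to 98 tags) and their MTA2 heights between 5.69 and 10.5 (13 to 24 tags). At chr16:50775302-50775648 MTA2 stood at 7.01 and Mi2 at 38.4, a difference of -92.9 points, with HDAC2 at 17.4 and IKAROS at 6.42. At chr17:16956906-16957252 MTA2 stood at 10.1 and Mi2 at 52.9, beside HDAC2 at 25.7, IKAROS at 33.4, AIOLOS at 11.8 and OCT2 at 8.18. At chr1:51985073-51985419, with MTA2 at 10.1 and Mi2 at 32.4, HDAC2 at 13.7 was the other protein found. HDAC2 was present in 7 of the 8 pairs, IKAROS in 6, AIOLOS in 4, OCT2 in 1 and OCAB in 0. The IKAROS heights were 6.42 to 33.4 in these pairs, and 9.84 to 179.6 in the 7 MTA2-leaning pairs that held it. Over all Mi2-leaning pairs HDAC2 was found at 52.6%, IKAROS at 77.2%, AIOLOS at 67.0%, OCT2 at 22.4% and OCAB at 7.0%.

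The 8 balanced pairs with the highest mean rank were among the top peaks of both lists, and all 8 held HDAC2. Their MTA2 heights were 284.2 to 1065.8, their Mi2 heights 81.6 to 292.3 and their HDAC2 heights 66.0 to 297.8. At chr4:185886309-185886745 MTA2 stood at 641.0, Mi2 at 292.3 and HDAC2 at 88.0, with IKAROS at 2492.1 and AIOLOS at 2916.4. At chr5:398122-398501 MTA2 stood at 336.7, Mi2 at 94.0 and HDAC2 at 66.0, with no peak of IKAROS, AIOLOS, OCT2 or OCAB. IKAROS was found in 6 of the 8, at heights between 23.1 and 2783.8, OCT2 in 0 and OCAB in 2. Over all balanced pairs HDAC2 was found at 66.6%, IKAROS at 89.3%, OCT2 at 43.4% and OCAB at 15.9%.

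**Figure D2:**
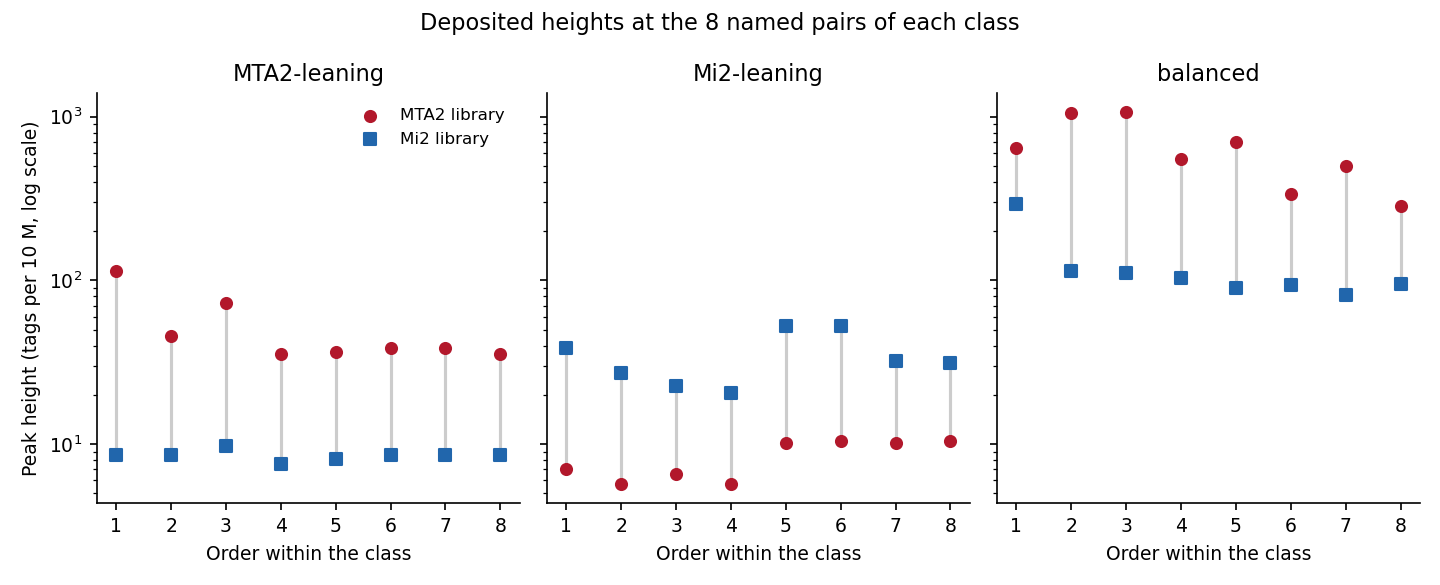
Deposited heights (tags per 10 M, log scale) of the MTA2 library (circles) and the Mi2 library (squares) at the 8 named pairs of each class, ordered by rank difference in the leaning classes and by mean rank in the balanced class. MTA2 lies above Mi2 in all MTA2-leaning and balanced pairs shown and below it in all Mi2-leaning pairs; the heights chose these pairs.

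Single pairs with all of the other 5 proteins, or with none, occurred in each class. The highest-ranking MTA2-leaning pair with all 5, chr12:131577704-131578112, had MTA2 at a height of 113.4, Mi2 at 17.8, HDAC2 at 54.1, IKAROS at 487.6 and OCT2 at 45.3. Its Mi2-leaning counterpart, chr4:102793688-102794083, had MTA2 at 21.9, Mi2 at 37.3, HDAC2 at 19.2, IKAROS at 100.9 and OCT2 at 11.5. With none of the 5, the highest-ranking pairs were chr9:80850536-80851049 leaning to MTA2 (93.7 for MTA2, 17.3 for Mi2), chr1:183812832-183813192 leaning to Mi2 (19.3 and 37.8) and chr2:1706995-1707362, balanced (214.1 and 35.1). The balanced pair thus had high peaks of both NuRD subunits where no peak of the other 5 lists was called. In the pair leaning to MTA2 the Mi2 percentile was 69.1, and in the pair leaning to Mi2 the MTA2 percentile was 62.8.

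With the lists as deposited, the other 5 proteins were each found less often at Mi2-leaning than at MTA2-leaning pairs. HDAC2 was present at 72.3% of MTA2-leaning pairs (95% Wilson interval 69.3 to 75.1), at 52.6% of Mi2-leaning pairs (48.2 to 56.9) and at 66.6% of balanced pairs (64.8 to 68.4). MTA2-leaning exceeded Mi2-leaning pairs by 19.7 percentage points (Newcombe interval 14.4 to 24.9) and balanced pairs by 5.67 points (2.17 to 9.05). Mi2-leaning minus balanced pairs came to -14.0 points (-18.8 to -9.31), a gap that was not seen at the lowest mean rank. With the 10000 highest peaks of the MTA2 and Mi2 lists the HDAC2 difference between the leaning classes was 8.43 points (2.33 to 13.9). These shares stand above those of the whole lists, where 35.7% of MTA2 peaks and 33.1% of Mi2 peaks overlapped HDAC2. A pair spans 2 peaks and is wider than 1, so list shares are a background and no test against it was made.

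IKAROS and AIOLOS were also scarcer at Mi2-leaning pairs. IKAROS lay at 91.0% of MTA2-leaning, 77.2% of Mi2-leaning and 89.3% of balanced pairs, and MTA2-leaning exceeded Mi2-leaning pairs by 13.8 points (9.77 to 18.0). AIOLOS lay at 87.4%, 67.0% and 84.5%, a difference of 20.4 points (15.8 to 25.1). In the whole lists IKAROS overlapped 75.5% of MTA2 and 44.7% of Mi2 peaks, and AIOLOS 68.6% and 39.2%. MTA2-leaning and balanced pairs differed by 1.71 points for IKAROS (-0.632 to 3.83) and 2.97 for AIOLOS (0.281 to 5.45). The differences between the leaning classes were not seen with the 10000 highest peaks of the MTA2 and Mi2 lists, where they were -0.580 points for IKAROS (-5.38 to 3.45) and -2.56 points for AIOLOS (-7.89 to 2.06).

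The octamer proteins showed the widest relative gap. OCT2 was found at 47.7% of MTA2-leaning, 22.4% of Mi2-leaning and 43.4% of balanced pairs, against 20.0% of all MTA2 peaks and 17.8% of all Mi2 peaks. The difference between the leaning classes was 25.3 points (20.3 to 30.1), and 10.2 points (2.91 to 17.2) with the 10000 highest peaks of the MTA2 and Mi2 lists. OCAB was found at 20.8% of MTA2-leaning, 7.0% of Mi2-leaning and 15.9% of balanced pairs, with 7.53% and 7.05% in the whole MTA2 and Mi2 lists. The leaning classes differed by 13.8 points (10.2 to 17.2). With all 7 lists, OCAB included, cut to peaks at least 8-fold over input, the difference was 6.76 points (1.49 to 12.1). OCAB at Mi2-leaning pairs therefore stood at about the share of the lists themselves.

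**Figure D3:**
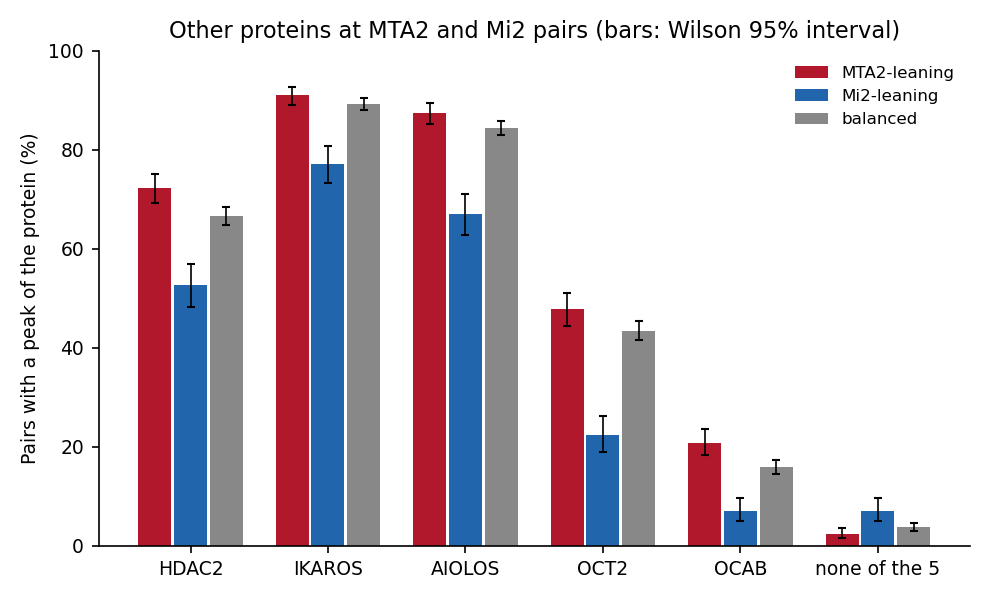
Share of pairs (%) that hold a peak of each other protein, or of none of the 5, in MTA2-leaning (left bar), Mi2-leaning (middle) and balanced pairs (right), with 95% Wilson intervals. The Mi2-leaning bar is the lowest for each protein, from 7.0% for OCAB to 77.2% for IKAROS, and the highest where none of the 5 is present (7.0%, against 2.34% in MTA2-leaning pairs).

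Mi2-leaning pairs more often stood alone, or with HDAC2 and neither IKAROS nor AIOLOS. None of the other 5 proteins was found at 2.34% of MTA2-leaning, 7.0% of Mi2-leaning and 3.69% of balanced pairs, a difference of -4.66 points between the leaning classes (-7.37 to -2.39). With the 10000 highest peaks of the MTA2 and Mi2 lists that difference was 0.461 points (-1.22 to 3.12). Of all MTA2 peaks 15.4% held none of the 5, and of all Mi2 peaks 44.5%. HDAC2 without IKAROS or AIOLOS, but with or without OCT2 or OCAB, occurred at 3.89% of MTA2-leaning pairs (35 pairs). It occurred at 10.0% of Mi2-leaning pairs (50) and 4.08% of balanced pairs (105). MTA2-leaning minus Mi2-leaning came to -6.11 points (-9.24 to -3.35). HDAC2 alone of the 5 was found at 2.11% of MTA2-leaning, 6.2% of Mi2-leaning and 1.94% of balanced pairs. That difference was -4.09 points (-6.67 to -1.94). At the other extreme all 5 proteins were present at 13.6% of MTA2-leaning, 2.4% of Mi2-leaning and 11.0% of balanced pairs. The most frequent combination was HDAC2 with IKAROS and AIOLOS among MTA2-leaning (23.7%) and balanced pairs (23.8%), and IKAROS with AIOLOS alone among Mi2-leaning pairs (24.2%).

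The contrast between the leaning classes was also seen among pairs of like combined height. Pairs were cut into 3 tiers of equal size by the mean of both percentiles, and MTA2-leaning exceeded Mi2-leaning pairs in HDAC2 share by 20.3 points in the lowest tier (12.0 to 28.2), 17.8 in the middle tier (10.4 to 25.3) and 9.62 in the highest tier (-2.42 to 24.5). The highest tier held 119 MTA2-leaning and 45 Mi2-leaning pairs, and its interval for HDAC2 included 0. The shares themselves were 60.6% of MTA2-leaning, 40.3% of Mi2-leaning and 38.7% of balanced pairs in the lowest tier, and 77.7%, 59.8% and 63.8% in the middle tier. In these 2 tiers Mi2-leaning pairs thus stood closer to balanced pairs than MTA2-leaning pairs did, although in the lowest tier balanced pairs had a lower median mean rank (32.0) than MTA2-leaning (41.7) and Mi2-leaning pairs (39.7). For OCT2 the differences were 21.5 (13.9 to 28.5), 26.7 (19.1 to 33.5) and 28.3 points (11.2 to 42.3), and for OCAB 5.62 (0.381 to 10.4), 17.3 (12.0 to 22.2) and 24.2 points (9.43 to 35.1). Mi2-leaning pairs stood near balanced pairs in the lowest tier, with 19.9% against 21.7% for OCT2 and 7.52% against 5.73% for OCAB. In the middle tier they stood lower, with 23.6% against 37.3% for OCT2 and 5.68% against 8.30% for OCAB. IKAROS stayed near a level share in Mi2-leaning pairs, with 78.3%, 76.0% and 77.8% in the lowest, middle and highest tier, while balanced pairs had 84.5%, 88.4% and 92.9%.

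A rank difference mixes the level of MTA2 with the level of Mi2, so the shares were also read with both lists cut into 3 tiers of equal size by height, a view added after the data were seen. HDAC2 went with both proteins. Where MTA2 was in the lowest tier of its list, HDAC2 was found at 25.8% of pairs with Mi2 in the lowest tier of its own list, 36.7% in the middle tier and 59.3% in the highest tier (329, 256 and 108 pairs). The step between the lowest and the highest tier was 33.4 points (22.7 to 43.3). In the middle MTA2 tier it was 7.89 points (-0.0571 to 15.7), and in the highest MTA2 tier 11.1 points (5.02 to 18.0), where HDAC2 reached 84.4%. Over the MTA2 tiers, the HDAC2 step was 47.5 points in the lowest Mi2 tier (39.2 to 54.7). It was 39.3 points in the middle Mi2 tier (32.4 to 45.7) and 25.2 points in the highest (16.1 to 34.8). The HDAC2 list was called at a looser limit than the others, with p-values up to 9.5e-05. Its 6674 peaks at or under 1e-10 gave 12.2%, 12.9% and 28.7% in the lowest MTA2 tier, a step of 16.5 points (7.89 to 26.2). In the middle MTA2 tier they gave 28.6%, 21.6% and 33.8%, a step of 5.21 points (-2.22 to 12.5). In the highest they gave 48.7%, 48.7% and 65.4%, a step of 16.7 points (9.24 to 24.0). At this limit the share thus rose at the highest Mi2 tier and not from the lowest to the middle.

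Among pairs, which all hold a Mi2 peak, the IKAROS share rose with the MTA2 tier and showed no such rise with the Mi2 tier. Where MTA2 was in the lowest tier, IKAROS was found at 79.9%, 80.5% and 71.3% of pairs from the lowest to the highest Mi2 tier, a step of -8.64 points (-18.6 to 0.345). In the middle MTA2 tier the step was -6.05 points (-11.7 to -0.179), and in the highest 1.00 points (-2.56 to 5.98). Read the other way, within the highest Mi2 tier IKAROS was found at 71.3% of pairs with MTA2 in its lowest tier and 92.3% with MTA2 in its highest, 21.0 points apart (13.2 to 30.2). The HDAC2 step over Mi2 tiers exceeded the IKAROS step by 42.1 points in the lowest MTA2 tier (28.1 to 56.0), 13.9 in the middle (4.73 to 23.1) and 10.1 in the highest (2.42 to 17.7). Over AIOLOS, OCT2 and OCAB it exceeded by 32.8 (18.1 to 47.5), 25.2 (11.9 to 38.4) and 26.6 points (14.1 to 39.0) in the lowest MTA2 tier. In the highest MTA2 tier those 3 intervals included 0. Smaller steps up over the Mi2 tiers were seen for OCAB in the lowest MTA2 tier (6.84 points, 1.76 to 14.1) and for OCT2 and AIOLOS in the highest (8.76, 1.31 to 16.2, and 4.70, 0.133 to 10.5). These contrasts used the whole, more loosely called HDAC2 list and were not recomputed at 1e-10. At that limit the HDAC2 step in the lowest MTA2 tier was 16.5 points (7.89 to 26.2), beside 8.27 for OCT2 (-0.0348 to 17.8).

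**Figure D4:**
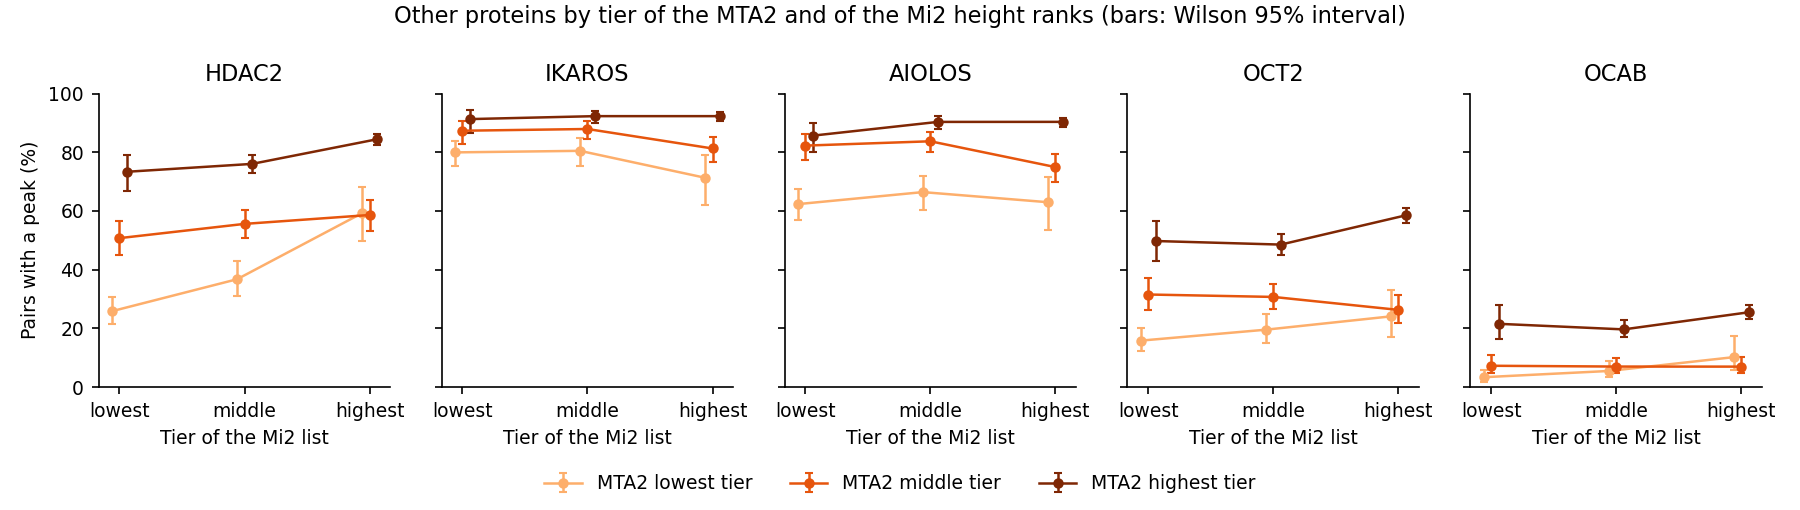
Share of pairs (%) with a peak of each other protein, by tier of the Mi2 list (x axis) and tier of the MTA2 list (line colour), with 95% Wilson intervals. For all 5 proteins the highest MTA2 line lies on top, and HDAC2 also climbs along the lowest MTA2 line, 25.8%, 36.7% and 59.3%. At the highest Mi2 tier the lowest and middle MTA2 lines meet for HDAC2 (59.3% and 58.6%) and cross for OCAB (10.2% and 6.95%).

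A logistic model with both percentiles as terms gave the same order for the 3973 pairs. A rise of 10 points in the MTA2 percentile multiplied the odds of HDAC2 by 1.35 (1.31 to 1.39), and a rise of 10 points in the Mi2 percentile multiplied them by 1.09 (1.06 to 1.12). For IKAROS the odds ratios were 1.23 for MTA2 (1.18 to 1.28) and 0.933 for Mi2 (0.895 to 0.971), and for AIOLOS 1.29 (1.25 to 1.34) and 0.960 (0.927 to 0.994). For OCT2 the Mi2 odds ratio was 0.999 (0.972 to 1.03) beside 1.32 for MTA2, and for OCAB 0.997 (0.959 to 1.04) beside 1.41. The model used the whole HDAC2 list. In it, HDAC2 was the one protein of the 5 whose odds went up with the Mi2 percentile at a given MTA2 percentile.

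Where HDAC2, IKAROS, AIOLOS and OCT2 were present, their median heights were also lower at Mi2-leaning pairs. OCAB heights showed no single order over the quartiles. The median HDAC2 height was 18.3 at MTA2-leaning, 14.7 at Mi2-leaning and 20.2 at balanced pairs. The median IKAROS height was 66.3, 30.4 and 63.7, and the median AIOLOS height 53.5, 26.8 and 50.4, in the same order. OCT2 had medians of 16.4, 13.1 and 18.0, and OCAB of 14.2, 13.1 and 17.1, the last over 187, 35 and 409 pairs. The upper quartile of OCAB height was, however, 19.4 at MTA2-leaning, 28.2 at Mi2-leaning and 24.5 at balanced pairs. The rank difference ranked with IKAROS height at a Spearman rho of 0.264 (n = 3502) and with HDAC2 height at 0.0820 (n = 2628). With OCT2 height the rho was 0.0255 (n = 1658), and with OCAB height -0.169 (n = 631). At pairs with the protein, MTA2 height ranked with HDAC2 height at a Spearman rho of 0.718 (n = 2628) and with IKAROS height at 0.716 (n = 3502). For Mi2 height the rho was 0.520 with HDAC2 and 0.426 with IKAROS over the same pairs. The libraries differ in depth and the Mi2 peaks hold fewer tags, and the part of this in the lower rho was not tested.

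With the heights as deposited, no difference between the leaning classes in the distance of the peak centres was seen, but other rankings gave one. The median distance between MTA2 and Mi2 centres was 97 bp in MTA2-leaning, 99 bp in Mi2-leaning and 95 bp in balanced pairs. Centres lay within 100 bp in 51.3%, 50.6% and 52.3% of pairs, and the leaning classes differed by 0.679 points (-4.77 to 6.13). MTA2-leaning exceeded Mi2-leaning pairs by 4.48 points (0.164 to 8.78) at a limit of 15 points and by 6.20 points (1.11 to 11.3) with ranks among paired peaks alone. Ranked by fold over input in place of height, MTA2-leaning pairs (1545) exceeded Mi2-leaning pairs (386) by 20.4 points (14.9 to 25.5). Peak widths were fixed in each list at 250 bp for MTA2 and 346 bp for Mi2, and the widest distance in a pair was 297 bp.

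The place of HDAC2 within a pair did differ. Its centre was nearer to the MTA2 than to the Mi2 centre at 64.5% of MTA2-leaning pairs (60.7 to 68.0), at 131 of 262 Mi2-leaning pairs and at 61.5% of balanced pairs. The leaning classes differed by 14.5 points (7.36 to 21.5), and Mi2-leaning minus balanced pairs came to -11.5 points (-18.0 to -5.09). The HDAC2 centre lay a median of 54 bp off the MTA2 centre and 97 bp off the Mi2 centre in MTA2-leaning pairs, and 81 bp and 80 bp in Mi2-leaning pairs. IKAROS stayed on the MTA2 side in all classes, with its centre nearer to MTA2 at 71.9% of MTA2-leaning, 71.9% of Mi2-leaning and 72.8% of balanced pairs (0.0116 points between the leaning classes, -5.31 to 5.58). AIOLOS (72.3%, 73.7% and 72.5%) and OCT2 (69.2%, 73.9% and 72.7%) had intervals of the difference between classes that included 0. OCAB (64.7%, 58.8% and 74.6%) rests on 34 Mi2-leaning pairs; the leaning classes differed by 5.88 points (-10.5 to 23.7), and Mi2-leaning minus balanced pairs came to -15.8 points (-32.9 to -0.342). HDAC2 and MTA2 peaks were also lower in Mi2-leaning pairs, and the part of height in these shares was not tested.

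**Figure D5:**
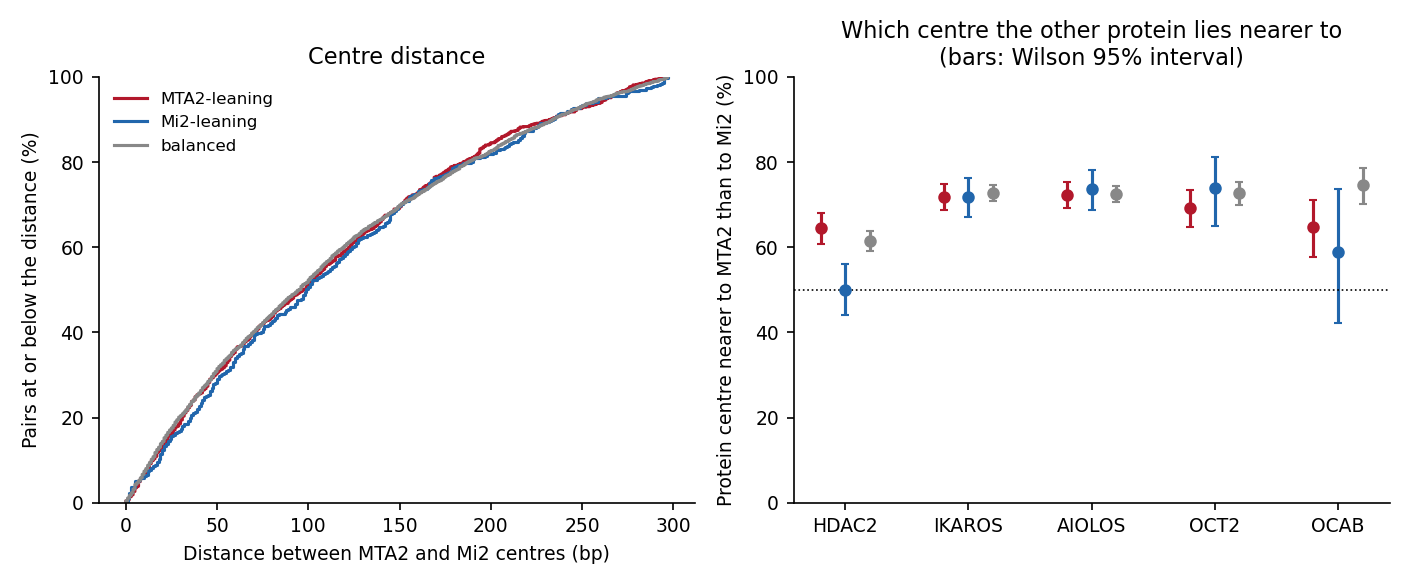
Left, cumulative share of pairs (%) against the distance between MTA2 and Mi2 centres (bp) in each class; right, share of pairs (%) in which the centre of the other protein lay nearer to MTA2 than to Mi2, with 95% Wilson intervals and a dotted line at equal shares. The 3 distance curves run together, and HDAC2 sits at 64.5% in MTA2-leaning pairs and on the dotted line in Mi2-leaning pairs.

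Pairs made up 13.8% of MTA2 peaks and 38.6% of Mi2 peaks, and peaks with a partner were set against those without in the same tier of their list. In the lowest MTA2 tier, HDAC2 overlapped 34.1% of MTA2 peaks with Mi2 and 14.3% of those without, a difference of 19.7 points (16.2 to 23.4). IKAROS overlapped 76.6% with and 63.6% without, 13.0 points apart (9.58 to 16.2). In the highest MTA2 tier the differences were 25.7 points for HDAC2 (23.6 to 27.7), 22.2 for OCT2 (19.9 to 24.5) and 6.94 for IKAROS (5.39 to 8.39). On the Mi2 side the gaps were wider. In the highest Mi2 tier IKAROS overlapped 86.5% of Mi2 peaks with MTA2 and 22.8% of those without, and HDAC2 76.2% and 26.4%. In the lowest Mi2 tier IKAROS overlapped 81.9% with MTA2 and 15.2% without. Among the highest Mi2 peaks the IKAROS share thus stood above the HDAC2 share with MTA2 and below it without, an order that was not tested.

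Position along chromosomes differed modestly. On the 22 autosomes, pairs within 2 Mb of the end of the span that peaks covered made up 8.55% of MTA2-leaning, 4.25% of Mi2-leaning and 7.23% of balanced pairs. The leaning classes differed by 4.30 points (1.57 to 6.79), from 76 MTA2-leaning and 21 Mi2-leaning pairs. Within 1 Mb of the end the difference was 2.09 points (-0.0915 to 4.03), and with centres within 100 bp it was 3.61 points (-0.527 to 7.25), both intervals including 0. All MTA2 peaks stood at 7.71% and all Mi2 peaks at 5.46%, so each leaning class lay on the side of the list it leaned to. Per 10 points, the odds ratio was 1.21 for the MTA2 percentile (1.14 to 1.29) and 0.966 for the Mi2 percentile (0.917 to 1.02). The number of regions with a peak of any list within 50 kb had a median of 5 at MTA2-leaning, 5 at Mi2-leaning and 6 at balanced pairs. Input tags in the peak had medians, in the same order, of 3, 3 and 4 in the MTA2 list and of 2.6, 3.5 and 4.4 (scaled to the Mi2 library) in the Mi2 list. Input at Mi2 peaks was thus lower in MTA2-leaning pairs, and its part in the leaning was not tested. Without a genome annotation of the build of the files, no pair was assigned to a gene, promoter or enhancer.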

How the data were processed

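The deposited data are 7 peak lists, 1 per antibody. CASAVA (1.8.2 and 1.4), Bowtie2 2.3.2.2, HOMER 4.9.1 and build hg19 are named in the submitters' processing notes, with no role given. Calling parameters stand in the HDAC2 header; those behind the other 6 lists were not found in a header or label. Per the file headers, peak height is a signal, tags per 10 M tags of the library. Tags in a peak are deposited as a count in 5 lists and, for MTA2 and IKAROS, as a signal scaled to the input depth. The authors deposited fold ratios and p-values over input and surroundings, a fraction of tags placed around the peak centre, and a peak score, which was ranked in place of height in an alternative.

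Percentiles were computed in each whole list, with mean ranks for ties. Tags for Poisson intervals were heights times the depth recovered from the steps between low heights, which gave whole tags (within 0.05) for 100.0% of them. Another protein was present where its peak overlapped the joint span of both peaks by at least 1 bp. Shares have Wilson and differences Newcombe intervals at 95%; differences between the steps of 2 proteins, and the logistic model, have normal intervals. No p-value was computed, since each antibody had 1 library. The pairing was tested on simulated peaks, where the largest deviation over 7 quantities was 0.0%. Named pairs were, per class, the 8 with the largest rank difference in the direction of the class (balanced: the highest mean rank) limited to the autosomes and X and to 4-fold or more over input in both lists, the highest-ranking pair with all and with none of the other 5 proteins, and 2 pairs on each side of each limit. Members, lists and alternatives were chosen with earlier results of these data known. No sequence or gene is given, since a genome of build hg19 was not used here. Software was matplotlib 3.10.9, statsmodels 0.14.6, scipy 1.17.1, pandas 2.3.3 and numpy 2.4.6 under Python 3.11.15.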

Additional observations from a re-analysis of the deposited data

How the results depend on the processing

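Of 148 values recomputed under other settings, 108 stayed within the interval of the reported difference (class counts: within 1.5 times), 37 moved out of it and 3 reversed; 97 of 113 differences of shares had an interval that excluded 0. Differences are MTA2-leaning minus Mi2-leaning, in points. HDAC2 was at least 8.43 and OCT2 at least 10.2 over 14 settings each, and every interval of these excluded 0. With the 10000 highest peaks of the MTA2 and Mi2 lists, IKAROS (-0.580), AIOLOS (-2.56) and the share with none of the other 5 (0.461) reversed, with intervals that included 0. There HDAC2 was 8.43, OCT2 10.2, OCAB 19.2 and chromosome ends 7.94, over 253 MTA2-leaning and 1361 balanced pairs; the cause was not tested. A limit of 15 points gave 1394 MTA2-leaning and 815 Mi2-leaning pairs, and a limit of 40 points 414 and 242, with 6.84 at chromosome ends. With centres within 100 bp there were 461 MTA2-leaning, 253 Mi2-leaning and 1347 balanced pairs, AIOLOS at 26.8 and OCAB at 18.3. Ranks among paired peaks gave AIOLOS 14.8 and centre distance 6.20. Rank of fold over input gave 1545 MTA2-leaning pairs, AIOLOS 14.6 and centre distance 20.4. With all 7 lists cut at 8-fold over input there were 304, 310 and 1304 pairs. AIOLOS was then at 14.5, OCAB at 6.76, OCT2 at 18.9 and chromosome ends at 8.40. Requiring the other centre within 100 bp gave HDAC2 13.0, IKAROS 21.0, OCAB 9.82 and none of the 5 -12.5. Ends of 5 Mb gave 8.24 and ends of 1 Mb 2.09 (-0.0915 to 4.03), and centres within 100 bp gave 3.61 at chromosome ends (-0.527 to 7.25). The centre distance difference, 0.679 as reported with an interval that includes 0, ran between -0.478 (150 bp) and 20.4, and 3 of its 14 intervals excluded 0, among them 4.48 at a limit of 15 points. Among pairs whose interval excludes 0, a choice made after seeing the data, 500 leaned to MTA2 and 243 to Mi2, with IKAROS at 18.5 and OCAB at 17.5. No paired analysis was possible because each antibody had 1 library, and for the same reason no library could be left out. Depth limits the ranks most in Mi2, where the median paired peak held 30 tags.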

Other observations

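Peak shape went with the leaning. The deposited fraction of tags placed around the peak centre had a median of 0.748 for MTA2 in MTA2-leaning, 0.704 in Mi2-leaning and 0.722 in balanced pairs, and of 0.680, 0.733 and 0.692 for Mi2. In each list the class with the higher peaks thus also had the higher fraction. The deposited clonal fold, tags over those expected from distinct positions, had a median of 0.93, 1.00 and 0.98 for Mi2 and of 0.93, 0.94 and 0.93 for MTA2. These are descriptions, since height chose the classes.

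Leaning pairs split unevenly over the genome. Over all leaning pairs 64.3% leaned to MTA2 (61.7 to 66.7). Across 23 chromosomes the share was lowest on chromosome 6, with 34 MTA2-leaning and 34 Mi2-leaning pairs (38.4 to 61.6), and highest on chromosome 22, at 82.9% (34 and 7 pairs, 68.7 to 91.5). Chromosome 10 had 75.3% (58 and 19 pairs, 64.7 to 83.6). These chromosomes were singled out after their values were seen, and the median input in the MTA2 list was 3 tags on each of the 3. Copy number in these cells was not tested.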
